A study of Mus musculus with 52 samples.

Results

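The genes described here are 43 mouse genes known as interferon targets or as immunity-related GTPases, chosen by symbol from a list of the RNA-binding IFIT genes, the ISG15 pair, interferon regulatory factors, RNA sensors, the OAS and MX families, other antiviral effectors, the GBP and IRG GTPases and the immunoproteasome subunits. The count table of bone marrow stroma held all 43 of them among 15168 genes, and the table of hematopoietic stem cells (HSC) held 42 among 13566 genes, with Mx1 not in that table. The listed genes were chosen with earlier results of these data known. The study asked how prostaglandin E receptor agonists given before lethal total body irradiation (TBI) change the 2 marrow compartments. Each of 13 groups held 4 mice, 2 female and 2 male, with 1 library per mouse and 52 libraries in all.

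The HSC groups were EP3 (sulprostone), EP4 (rivenprost), EP3+4 (both compounds), Miso (misoprostol) and Veh (vehicle), and all of these mice received 853 cGy. The irradiated stroma groups were PGE (read here as dmPGE2, from the title of the series), EP3, EP4, EP3+4, Miso and Veh, and the non-irradiated (NI) groups were NI-PGE and NI-Veh. The injection was given 30 min before TBI, and marrow was taken 1 h after it. The labels name NI-PGE as a treated group, whereas the design text speaks of vehicle alone for the non-irradiated mice, and the group is used here as labelled. Doses, strain and age are not given in the sources used here. HSC were sorted as SLAM LKS cells, so each HSC library is a bulk sample of a rare population amplified from 1 ng of RNA. Stroma was enriched with magnetic beads as CD45- Ter119- cells and still held transcripts of blood cells: the summed level of 12 granulocyte markers ran from 902 to 13200 CPM (read counts scaled to a common library size) over the 32 stroma libraries, beside 3139 to 16920 CPM for Cxcl12, the defining chemokine of reticular stroma. Total counts per library ran from 27376014 to 73695537. In HSC, EP3 replicate 1 stood apart, with 13290 CPM of granulocyte markers against 161 to 731 CPM in the other 19 libraries and 5380 CPM of erythroid markers against 95.1 to 362 CPM. In stroma, Xist stood at 3.11 CPM in the library of NI-Veh replicate 4, which is labelled female, against 120 to 283 CPM in the other female libraries and at most 0.27 CPM in male ones, while its Y-linked genes were at the female level of at most 0.114 CPM.

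Type I interferons act through the receptor chains Ifnar1 and Ifnar2, whose kinases Jak1 and Tyk2 activate Stat2. A complex that holds Stat2 and Irf9 binds the interferon-stimulated response element (ISRE) before antiviral genes, and interferon gamma acts at a second element, the gamma-activated site (GAS). Many stem and stromal cells keep a low constitutive level of these genes without infection. Interferon signalling itself was not measured here. The GBP and IRG families are large interferon-inducible GTPases that act on the vacuoles holding intracellular microbes. None of the 10 interferon ligand genes looked for was in either table.

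In stroma, Ifitm3, a membrane protein that blocks viral entry, had the highest level per length of the 43 genes, at 257 ± 59.6 CPM per kb of gene length (SD over 32 libraries). The exonuclease gene Isg20 followed at 64.0 ± 21.4, the immunoproteasome subunit gene Psmb8 at 59.3 ± 13.4, the virion tether Bst2 at 51.2 ± 17.5 and Rsad2, which encodes the antiviral enzyme viperin, at 47.7 ± 29.4 CPM per kb. These last 4 lie within one another's spread. The lowest were Mx1 at 0.639 ± 0.411, Mx2 at 0.624 ± 0.207 and Oas2 at 0.598 ± 0.268 CPM per kb, which also overlap. Irgm2, an IRG GTPase of the regulatory subgroup to which the treatment results return, stood at 8.82 ± 5.86 CPM per kb, with single libraries between 6.498 and 95.6 CPM.

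In HSC the order began with Ifitm3 at 1260 ± 319 CPM per kb (SD over 20 libraries), Psmb8 at 661 ± 104, Psmb9 at 351 ± 50.4 and Psmb10 at 204 ± 33.9 CPM per kb, the last 3 being the catalytic subunits of the immunoproteasome. Ifit3 was at 0 in 5 HSC libraries, Gbp9 in 2, Oas2 in 1 and Mx2 in 10. The 2 compartments were prepared with different kits and fitted separately, so their levels are given side by side only.

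Female stroma held more interferon-stimulated transcripts than male stroma. Of the 43 genes, 19 were higher in female mice and 0 lower at an adjusted p under 0.05 in edgeR's quasi-likelihood test over 16 female and 16 male libraries, with a term for group. This test takes each mouse as independent, while mice of the same sex carry consecutive numbers in sets. The spread between such sets is not in its p-values. Over all 15168 genes the same test called 1.84% higher and 1.04% lower in female mice. The median log2 difference was 0.35 over the 43 genes and 0.01 over all genes, and 42 of the 43 lay above 0, the exception being Isg20 at -0.31 (47.9% of all genes lay below 0). The mean of the log2 CPM values of the 43 genes was 4.88 ± 0.228 in female and 4.49 ± 0.229 in male libraries (SD, n = 16 each), with ranges of 4.39 to 5.15 and 4.09 to 4.93 that overlap.

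**Figure D1:**
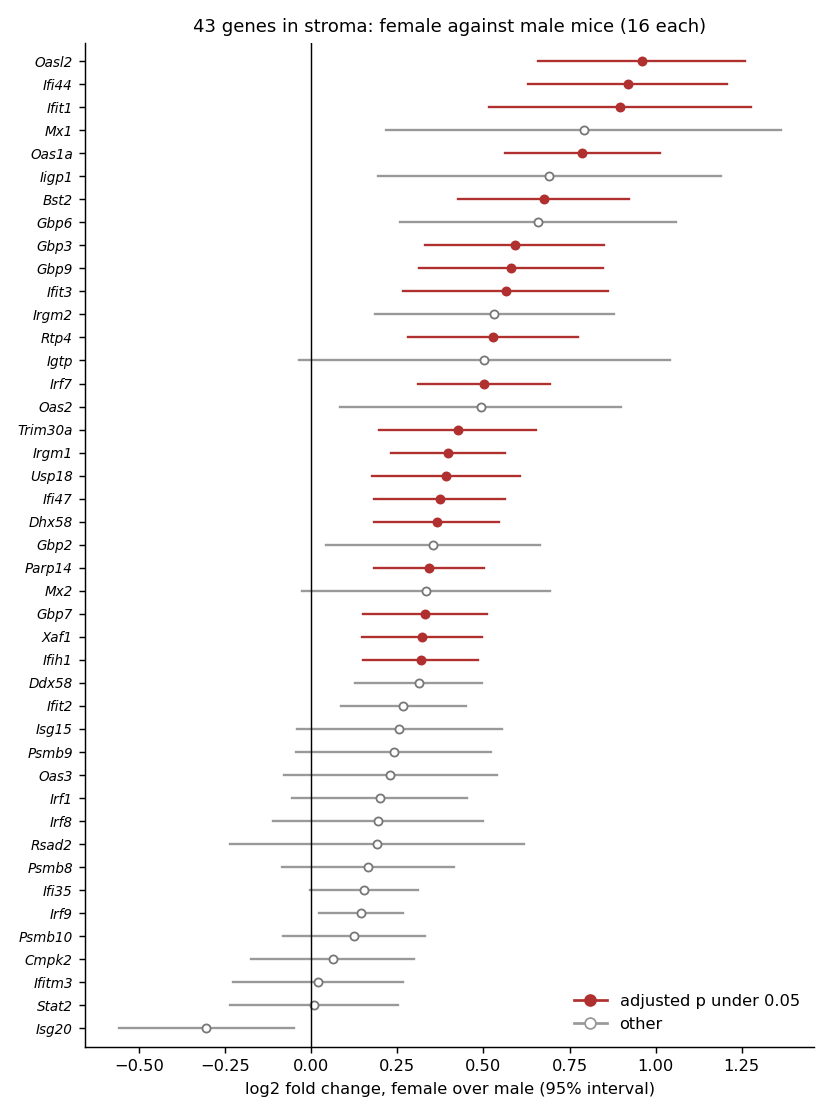
Female minus male log2 difference of each of the 43 genes in stroma (horizontal axis) with its 95% interval (line), ordered by size with the largest at the top; red filled points passed an adjusted p of 0.05. The 19 genes that passed all lie right of 0, between Parp14, Ifih1, Xaf1 and Gbp7 near 0.3 and Oasl2 at 0.96.

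The OAS family encodes enzymes that sense foreign RNA and switch on RNase L, and 2 of its 4 genes rose in female mice. Oas1a ran from 11.3 over a median of 16.3 to 22.4 CPM in female stroma and from 5.99 over 9.91 to 14.0 CPM in male stroma. Its means were 17.2 ± 3.42 and 9.99 ± 2.15 CPM (SD, n = 16 each), a log2 difference of 0.79 ± 0.11 (SE; edgeR adjusted p = 3.47e-05). The ranges overlap, but both females lay above both males in 7 of the 8 groups. Oasl2, an OAS-like gene with ubiquitin-like domains, ran from 16.5 over 31.5 to 56.2 CPM in female and from 6.27 over 14.0 to 33.5 CPM in male stroma. Its log2 difference was 0.96 (edgeR adjusted p = 0.00013), and both females stood above both males in 8 of the 8 groups. Oas2 and Oas3 did not pass.

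Among the single effectors, Ifi44, an interferon-induced antiviral protein, showed the same separation. It ran from 5.61 over 8.52 to 13.2 CPM in female and from 2.47 over 4.53 to 7.03 CPM in male stroma, a log2 difference of 0.92 (edgeR adjusted p = 0.000131). Both females exceeded both males in 8 of the 8 groups here too. Bst2 ran from 28.2 over 43.9 to 70.6 CPM in female and from 19.8 over 30.8 to 41.0 CPM in male stroma, a log2 difference of 0.67 (edgeR adjusted p = 0.00103). Ifit1, which binds viral RNA that lacks the host's cap methylation, ran from 7.62 over 18.6 to 39.8 CPM in female and from 6.29 over 11.5 to 24.7 CPM in male stroma, a log2 difference of 0.90 (edgeR adjusted p = 0.00539). For Bst2 and Ifit1 the ranges overlap more widely. Ifit3 rose as well, by 0.56, and Ifit2 did not pass. The call of Ifit3 was lost in 12 of 41 alternatives, among them the fit with the run of mouse numbers as a term (0.51, edgeR adjusted p = 0.0602). Ifit3 also passed neither in the first nor in the second run fitted alone.

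**Figure D2:**
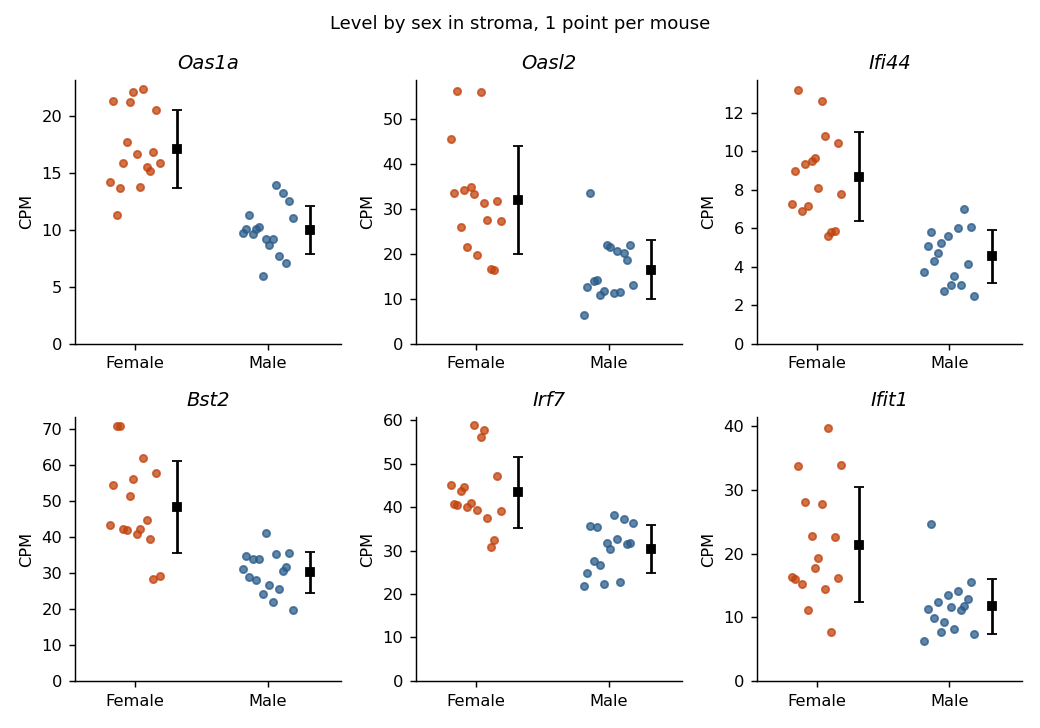
Level of 6 genes (CPM, linear axis from 0) in the 16 female and the 16 male stroma libraries, with a point per mouse and a square and bar for the mean and SD. Female points lie higher on average for each gene, and the ranges of the sexes overlap, as for Oas1a from 11.3 to 22.4 CPM in female and from 5.99 to 14.0 CPM in male mice.

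Of the 5 IRF and STAT genes, Irf7, the factor that amplifies type I interferon transcription, alone passed. It ran from 30.8 over 40.8 to 58.8 CPM in female and from 21.7 over 31.6 to 38.2 CPM in male stroma, a log2 difference of 0.50 (edgeR adjusted p = 0.00165). The RIG-I-like sensors of viral RNA Ifih1 (0.32) and Dhx58 (0.36) passed and Ddx58 (0.31) narrowly did not (edgeR adjusted p = 0.0578). Usp18, the protease that removes ISG15 and restrains the receptor, rose by 0.39. The ADP-ribosyltransferase Parp14 (0.34), Rtp4 (0.53), Xaf1 (0.32) and the ubiquitin ligase of the TRIM family Trim30a (0.43) also rose, so that 5 of the 6 genes grouped as other interferon-induced genes passed, Ifi35 being the one that did not. Several of these calls were lost under many of the 41 alternatives: Usp18 in 20, Xaf1 in 17, Trim30a in 16 and Ifih1 in 9. Dhx58, Parp14 and Rtp4 lost theirs in 3 each and Irf7 in 1, and none of them changed direction. Most of the 41 alternatives left out a single library. Dhx58, Parp14, Rtp4, Usp18, Xaf1 and Trim30a passed neither in the first nor in the second run of mouse numbers fitted alone. Parp14 differed by 0.15 in the first run (edgeR adjusted p = 0.435) and by 0.51 in the second (0.0504).

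Among the GTPases 5 of 10 rose in female stroma. Gbp3 rose by 0.59, Gbp9 by 0.58 and Gbp7 by 0.33 on the log2 scale, while Gbp2 and Gbp6 did not pass. Irgm1, a regulatory IRG protein, rose by 0.40 (edgeR adjusted p = 0.00422) and Ifi47 by 0.37. The call was lost in 19 of the 41 alternatives for Gbp7, in 3 for Ifi47, in 2 for Gbp9 and in 1 each for Gbp3 and Irgm1. Gbp7 passed neither in the first nor in the second run of mouse numbers fitted alone. Irgm2 had a log2 difference of 0.53 that did not pass (edgeR adjusted p = 0.0937). None of the 2 MX genes, the 2 genes of the viperin locus or the 3 immunoproteasome genes passed. No gene of the 43 had every female library above every male one, a pattern that 0.0659% of all genes showed.

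Other interferon pathway genes, from lists also chosen with earlier results of these data known, included some that were higher in female stroma. Of 51 further interferon-stimulated genes measured, 9 were higher in female and 0 lower, where 1.84% and 1.04% of all genes were. Among the 9 was the OAS gene Oas1g (1.07), at a low level of 0.855 ± 0.377 CPM in female and 0.396 ± 0.169 CPM in male stroma (SD). Ifi27l2a (0.98, edgeR adjusted p = 0.000118), Parp9 (0.30) and its partner Dtx3l (0.29) were also among them. The others were Phf11b (0.72), Sp100 (0.30), the ubiquitin ligase Trim25 (0.24), Trim12c (0.23) and Nmi (0.22), and the peptide-trimming enzyme Erap1 of antigen processing rose by 0.23. The nucleic acid sensor Zbp1 rose by 0.73. No gene of 6 interferon receptor or 5 JAK-STAT genes passed. Of 10 markers of plasmacytoid dendritic cells, which make type I interferon, 0 passed, with sums of 291 to 644 CPM in female and 242 to 662 CPM in male stroma, and of 15 monocyte and macrophage markers 0 passed, with 1310 to 3320 CPM in female and 1030 to 3720 CPM in male stroma. All 12 endothelial markers lay above 0 with 0 called, at a median of 0.16. Of the cell type markers looked at, the osteoblast-lineage gene Spp1 alone passed, and it was lower in female stroma (-0.80). The other 7 osteoblast-lineage markers lay above 0, at a median of 0.50 over all 8. Their sums were 2350 to 27800 CPM in female and 1510 to 8890 CPM in male stroma. Female sums above 9882 CPM, the level of Veh replicate 1, came from NI-Veh replicate 4 (27800 CPM) and NI-PGE replicate 4 (18100 CPM) alone. Both mice belong to a run of mouse numbers that holds no male. The part of these markers in the result was not tested. More cells of a type and more RNA per cell cannot be told apart in bulk samples.

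The stroma mice carry numbers in 3 runs, 715 to 730, 780 to 793 and 1021 to 1022, and within a run the sexes hold consecutive numbers, so that sex and place in the run cannot be told apart there. The run from 1021 holds 1 female of NI-Veh and 1 female of NI-PGE and no male, so sex and run cannot be told apart in it, and no irradiated mouse belongs to it. In the run from 715 females have the lower numbers and in the run from 780 the higher ones. With the first run alone 8 of the 43 genes passed, and with the second alone 10. For these fits the share of all genes that passed is not given here. Oas1a differed by 0.69 in the first run and 1.02 in the second, Bst2 by 0.57 and 0.56, and Ifi44 by 0.60 and 1.19, and each of these passed in both. Of the genes called with all libraries, no other passed in both runs. Oasl2 differed by 0.92 in the first run and by 0.79 in the second, where it missed the threshold (edgeR adjusted p = 0.0559). Ifit1 differed by 0.32 and did not pass in the first run (edgeR adjusted p = 0.215), and it differed by 1.33 in the second. With irradiated libraries alone 10 genes passed. The count was 12 without PGE replicate 1 and 18 without NI-Veh replicate 4.

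In HSC the sex term called 0 of 42 genes in edgeR and in DESeq2, where edgeR called 0.0663% of all genes. Unadjusted, 3 had a p under 0.05 (4.3% of all genes), with positive values for Oasl2 (0.31) and negative ones for Rsad2 (-1.01) and Gbp2 (-0.50) in female HSC. The size for Rsad2 rests on EP3 replicate 1, a male library with 631 CPM: without it the difference was -0.56, and the medians were 44.3 CPM in female and 68.2 CPM in male HSC with all libraries. The median difference over the 42 genes was -0.09. Whether the sex difference itself differs between the compartments was not tested.

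The promoters of the genes that rose in female stroma are shown here because many carry the ISRE core. RefSeq promoter windows on GRCm38.p6, from 250 bases before to 50 after the start, were found for 33 of the 43 genes. The ISRE core was searched as GAAANNGAAA and the GAS core as TTCNNNGAA, on both strands; the GAS letters read alike on both strands, and a site of either kind may overlap another. A gene was counted if any of its promoter windows held a match. The ISRE core was found for 18 of the 33 genes (54.5%), against 3.99% of 27025 genes with a window. The GAS core was found for 12 of the 33 (36.4%), against 9.55%. Of the 19 genes higher in female stroma 14 had a promoter and 9 of these held the ISRE core (64.3%), and of the other 24 genes 19 had one and 9 held it (47.4%). In the stretches below, written in the direction of the gene, capitals mark the ISRE cores, and runs of capitals are cores that overlap.
Oas1a, chr5:120907526-120907585, minus strand: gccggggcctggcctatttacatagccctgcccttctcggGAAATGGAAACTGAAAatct
Bst2, chr8:71537565-71537624, minus strand: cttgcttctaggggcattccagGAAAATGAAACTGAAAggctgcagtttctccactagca
Irgm1, chr11:48871421-48871480, minus strand: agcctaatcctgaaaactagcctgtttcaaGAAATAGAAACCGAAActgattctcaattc
Gbp3, chr3:142559977-142560036, plus strand: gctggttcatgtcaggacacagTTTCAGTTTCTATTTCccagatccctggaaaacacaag
Isg15, chr4:156200856-156200915, minus strand: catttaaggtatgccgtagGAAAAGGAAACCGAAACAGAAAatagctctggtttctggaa
Isg15 is shown as a gene with 3 cores that did not pass in female against male stroma. In Gbp3 the core lies on the opposite strand and reads as TTTC repeats. A match describes letters and shows no binding.

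Prostaglandin treatment lowered a small set of these genes in stroma, led by Irgm2 and Parp14. Of the 43 genes, 2 fell in PGE against Veh (1.11% of all genes fell), 3 in EP3+4 against Veh (1.6% of all genes fell) and 3 in NI-PGE against NI-Veh (1.99% of all genes fell), each at an edgeR adjusted p under 0.05, and 0 rose in any of the 3. None of the 43 passed in edgeR in EP3 against Veh (0.105% of all genes passed in either direction), EP4 against Veh (1.13%) or Miso against Veh (0.916%), and DESeq2 called 0, 0 and 1 of them. Before adjustment a p under 0.05 was reached by 1 in EP3 (3.93% of all genes), 5 in EP4 (9.96%) and 6 in Miso (11%). These irradiated comparisons share the same 4 Veh libraries.

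**Figure D3:**
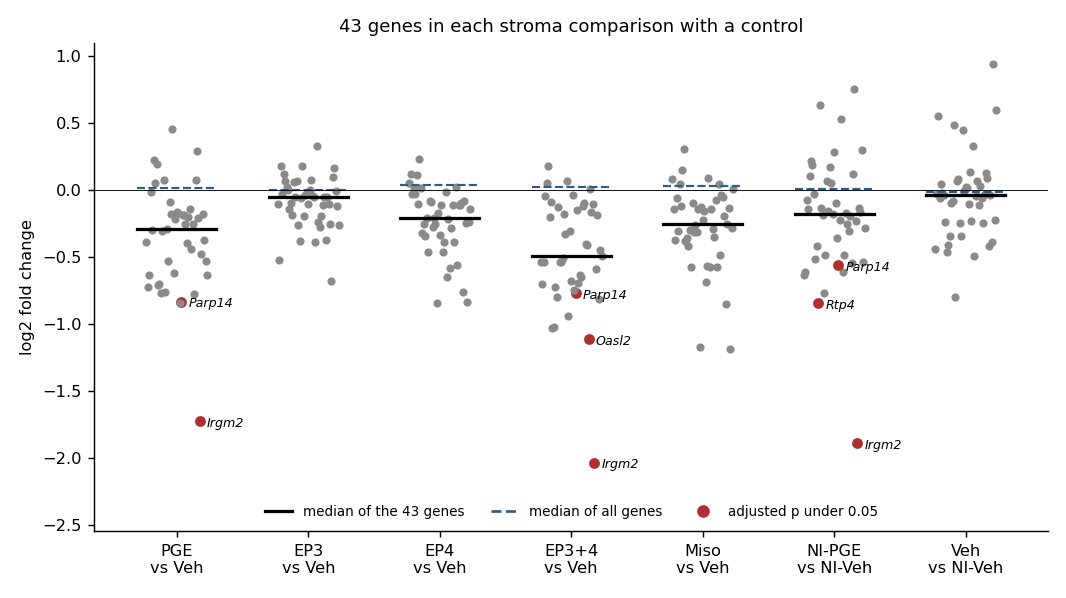
Log2 fold change of the 43 genes (vertical axis, a point per gene) in each of 7 stroma comparisons, with the median of the 43 genes as a solid line and that of all genes as a dashed line; red named points passed an adjusted p of 0.05. Irgm2 is the lowest of the red points in PGE, EP3+4 and NI-PGE, at -1.73, -2.04 and -1.89.

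Irgm2, one of the IRG proteins that guard host membranes from the family's effector GTPases, had the largest fold change of the 43 genes in all 3 of these comparisons. It stood at 22.3, 12.9, 9.73 and 15.99 CPM in PGE mice, at 12.0, 6.498, 12.9 and 17.3 CPM in EP3+4 mice and at 61.6, 58.2, 30.4 and 45.8 CPM in Veh mice. Every PGE and every EP3+4 library lay below every Veh library, as for 5 of the 43 genes and 4.98% of all genes in PGE and for 5 of the 43 and 5.7% in EP3+4. The log2 fold change was -1.73 ± 0.344 in PGE (SE; edgeR adjusted p = 0.00582) and -2.04 ± 0.348 in EP3+4 (edgeR adjusted p = 0.00126). Without irradiation it stood at 19.8, 16.3, 10.9 and 25.7 CPM in NI-PGE mice and at 45.2, 44.7, 75.4 and 95.6 CPM in NI-Veh mice, again with no overlap, as for 3 of the 43 genes and 3.94% of all genes. The log2 fold change there was -1.89 ± 0.346 (SE; edgeR adjusted p = 0.0017). This call was lost in the run from 715 alone, at -1.30 (edgeR adjusted p = 0.103). The effect of PGE did not pass a test of difference between irradiated and non-irradiated mice for any of the 43 genes in edgeR or DESeq2, where edgeR's interaction term called 0.0264% of all genes. With an unadjusted p under 0.05 the term held 0 of the 43 and 2.5% of all genes.

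The other 3 treated groups held Irgm2 at intermediate levels. The levels were 36.6, 27.8, 20.5 and 40.3 CPM in EP3 mice, 12.8, 19.0, 37.9 and 44.0 CPM in EP4 mice and 40.2, 25.1, 13.1 and 35.1 CPM in Miso mice. Each of these groups overlapped Veh. Against Veh the log2 fold change was -0.68 in EP3, with a 95% interval from -1.37 to 0.01, -0.76 in EP4, with an interval from -1.45 to -0.07, and -0.85 in Miso, with an interval from -1.54 to -0.16, and their edgeR adjusted p-values were 1, 0.424 and 0.301.

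Parp14, which attaches ADP-ribose to proteins, had smaller fold changes. It stood at 65.5, 45.9, 58.1 and 63.4 CPM in PGE mice, at 59.0, 56.9, 58.3 and 67.8 CPM in EP3+4 mice and at 104.8, 89.9, 83.4 and 141.1 CPM in Veh mice. Neither treated group overlapped Veh, a pattern that 4.98% of all genes showed downward in PGE and 5.7% in EP3+4. The log2 fold change was -0.84 in PGE (edgeR adjusted p = 0.00382) and -0.77 in EP3+4 (edgeR adjusted p = 0.00498). In NI-PGE mice it stood at 69.97, 54.2, 54.3 and 79.5 CPM and in NI-Veh mice at 83.4, 80.4, 99.7 and 111.7 CPM, a log2 fold change of -0.56 (edgeR adjusted p = 0.0383). The highest NI-PGE library lay just under the lowest NI-Veh one. In Miso the log2 fold change of Parp14 was -0.57 and missed the threshold (edgeR adjusted p = 0.0774).

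**Figure D4:**
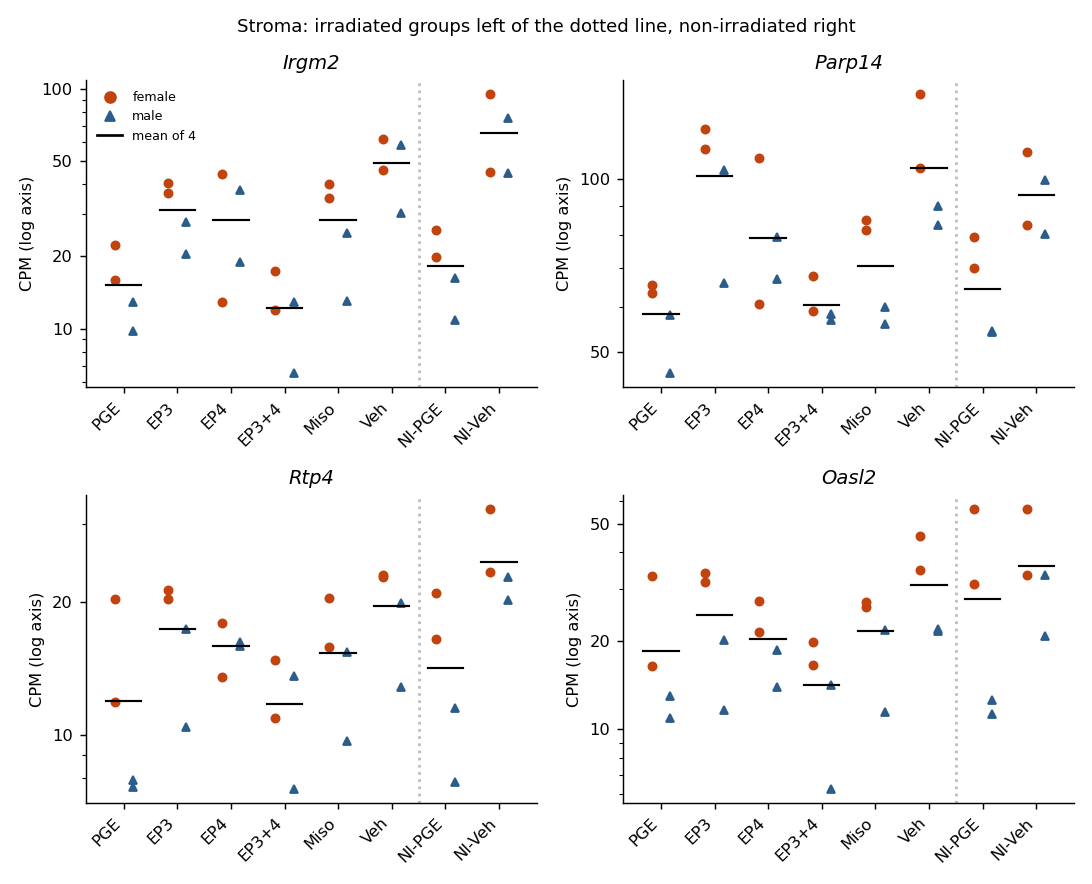
Level of Irgm2, Parp14, Rtp4 and Oasl2 in each stroma library (CPM, log axis), by group, with a point per mouse marked by sex and a line at the mean of 4. Irgm2 and Parp14 lie lower in PGE and EP3+4 than in Veh, with no overlap.

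The OAS gene Oasl2 and the receptor transporter gene Rtp4 each passed in 1 comparison. Oasl2 stood at 16.6, 6.27, 14.2 and 19.7 CPM in EP3+4 mice and at 45.6, 21.9, 21.6 and 34.8 CPM in Veh mice, with no overlap. Its log2 fold change was -1.12 (edgeR adjusted p = 0.034). Rtp4 stood at 20.9, 11.5, 7.82 and 16.5 CPM in NI-PGE mice and at 23.4, 20.2, 22.7 and 32.4 CPM in NI-Veh mice, where the highest treated library exceeded the lowest vehicle library. Its log2 fold change was -0.85 (edgeR adjusted p = 0.0438). Both calls and that of Parp14 in NI-PGE were lost under many alternatives: Oasl2 in 9 of 19, Rtp4 in 9 of 18 and Parp14 in 11 of 18. Leaving out any of 6 single libraries ended the call of Oasl2, at adjusted p-values of 0.0754 to 0.125.

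Beyond these, the next genes by p-value did not pass. In EP3 they were Ifi47 (-0.38), Stat2 (0.33), Oas3 (-0.38) and Oasl2 (-0.37), beside Irgm2. In EP4 they were Usp18 (-0.58), Parp14 (-0.39), Oas3 (-0.65) and Oas2 (-0.85), and in Miso, after Parp14, they were Oas2 (-1.17), Gbp9 (-0.68) and Trim30a (-0.58). In PGE they were Gbp9 (-0.84, edgeR adjusted p = 0.087), Rtp4 (-0.77, 0.094) and the RNA sensor Ddx58 (-0.53, 0.125). In EP3+4 they were Usp18 (-0.65, edgeR adjusted p = 0.0874) and Rtp4 (-0.72, 0.0983). In NI-PGE they were Isg20, with a positive value (0.76, edgeR adjusted p = 0.0913), and Ddx58 (-0.54, 0.097). The whole list lay below 0 most in EP3+4, where 39 of 43 genes did (47.3% of all genes), with a median of -0.49 against 0.03 over all genes. There 16 of the 43 were lower at an unadjusted p under 0.05, against 8.38% of all genes. The median was -0.29 in PGE with 36 of 43 genes below 0 (48.1% of all genes), -0.25 in Miso with 36 (45.8%), -0.21 in EP4 with 36 (43.9%) and -0.06 in EP3 with 31 (49.4%). In NI-PGE against NI-Veh it was -0.18 with 31 of 43 below 0 (49.1%).

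By role, in EP3+4 the 4 OAS genes had a median log2 fold change of -0.82 and all 4 lay below 0, the 5 IRG genes had -0.70 with 5 below 0, and the 5 GBP genes -0.59 with 5 below 0. The 3 RIG-I-like sensors had a median of 0.00 with 1 below 0, and the 3 immunoproteasome genes -0.10. Of the IRG genes Irgm2 alone passed, at -2.04 with a 95% interval from -2.75 to -1.32, and the differences between IRG genes were not tested. Irgm1 had a log2 fold change of -0.10, with a 95% interval from -0.43 to 0.23, and Igtp, the gene next to Irgm2, -0.70, with an interval from -1.76 to 0.36. Iigp1, an effector IRG protein, had -1.03, with an interval from -2.02 to -0.04, and Ifi47 had -0.51, with an interval from -0.89 to -0.13, and neither passed the adjusted threshold (edgeR adjusted p = 0.258 and 0.136). Iigp1 averaged 32.98 ± 14.9 CPM in EP3+4 and 67.2 ± 28.6 CPM in Veh mice (SD, n = 4 each). Igtp averaged 43.6 ± 24.5 CPM in EP3+4 and 73.6 ± 33.6 CPM in Veh mice (SD, n = 4 each), and its groups overlap.

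Igtp and Irgm2 lie side by side on chromosome 11, at chr11:58199556-58207592 and chr11:58214977-58222783 (mm10, plus strand). A stretch of 60 bases upstream of each start is shown, picked to hold the ISRE core. Aligned on that core, 57 of 59 bases are identical (96.6%), and the rest of the promoter windows was not compared. Irgm2 passed and Igtp did not, and the difference between these genes was not tested. Capitals mark the ISRE core.
Irgm2, chr11:58214888-58214947, plus strand: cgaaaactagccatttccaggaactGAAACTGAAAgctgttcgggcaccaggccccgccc
Igtp, chr11:58199496-58199555, plus strand: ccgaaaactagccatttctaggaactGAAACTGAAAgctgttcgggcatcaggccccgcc
Reads that fit close relatives may have been split or dropped by the counting, so levels of Irgm1, Irgm2 and Igtp, of Ifit1 and Ifit3, of the OAS genes and of the GBP genes are less certain than those of single-copy genes.

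The 51 further interferon-stimulated genes were chosen with earlier results of these data known. Of all genes 1.11% fell in PGE, 1.6% in EP3+4 and 1.99% in NI-PGE. Of the 51 genes, 6 fell in PGE, 7 in EP3+4 and 4 in NI-PGE, and 0 rose in any of the 3. Parp11 and Trim21 were among them each time: Parp11 had log2 fold changes of -0.99, -1.29 and -1.13 in PGE, EP3+4 and NI-PGE, and Trim21, an antibody receptor that marks viruses for destruction, of -0.63, -0.72 and -0.68. Gbp5 fell by 1.496 in PGE and by 1.32 in EP3+4, and Dtx3l fell by 0.80 in PGE, by 0.79 in EP3+4 and by 0.75 in Miso. Slfn8 fell by 1.203 in PGE and by 1.15 in EP3+4, Trim12c by 0.43 in both, and Znfx1 by 0.82 in EP3+4, while Mov10 fell by 0.73 and Tor3a by 0.69 in NI-PGE. The endotoxin receptor Tlr4 fell in all 3, by 1.26 in PGE, by 1.14 in EP3+4 and by 1.19 in NI-PGE, where the adaptor of the RIG-I-like sensors, Mavs, fell by 0.45. The interferon lambda receptor Ifnlr1 fell by 1.67 in PGE and by 1.72 in Miso. The pathway genes that rose were the interferon gamma receptor chain Ifngr1 in EP3+4 (0.60) and Socs3, an inhibitor of JAK signalling, in EP4 (2.23), EP3+4 (2.03), Miso (2.53) and NI-PGE (1.73).

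Monocyte and macrophage markers also had negative fold changes, with none passing the test. The summed level of 15 markers was 1030 to 2580 CPM in EP3+4 and 2800 to 3370 CPM in Veh mice, and all 15 lay below 0, at a median of -0.63, with 0 called. It was 1550 to 3340 CPM in PGE against 2800 to 3370 CPM in Veh mice, and 1310 to 3320 CPM in NI-PGE against 2420 to 3720 CPM in NI-Veh mice. In EP4 the sum was 1840 to 2350 CPM and in EP3 1860 to 2600 CPM, both also under every Veh library. The 12 granulocyte markers had a median of -1.02 in EP3+4, at sums of 2700 to 5040 CPM against 2530 to 13200 CPM in Veh mice, with 0 called. The 8 osteoblast-lineage markers had sums of 1510 to 5290 CPM in PGE and 1670 to 4770 CPM in EP3+4 against 3850 to 9880 CPM in Veh mice, with medians of -0.68 and -0.73. In NI-PGE they had sums of 2870 to 18100 CPM against 5120 to 27800 CPM in NI-Veh mice, with a median of -0.50, and 0 passed in any of the 3. The 7 megakaryocyte and platelet markers also all lay below 0 in the 3 comparisons, at medians of -0.41 in PGE, -0.64 in EP3+4 and -0.60 in NI-PGE, with 0 called. Of all cell type markers, Foxc1 of reticular stroma fell in EP3+4 (-1.46) and NI-PGE (-1.41) and the B cell gene Ms4a1 in EP3+4 (-2.19). Among 10 plasmacytoid dendritic cell markers 0 passed, at 285 to 542 CPM in EP3+4 and 313 to 393 CPM in Veh mice. The part of these cells in the results was not tested.

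With the first run of mouse numbers alone 11 of the 43 genes passed in EP3+4 against Veh and with the second 0, where each group then held 2 mice. The share of all genes that passed in the same fits is not given here. Irgm2 had a log2 fold change of -1.35 in the second run, at an edgeR adjusted p of 0.176, and Parp14 of -0.82, at 0.206. In PGE against Veh the second run gave -1.57 for Irgm2 and -0.81 for Parp14, with 0 of 43 passing. For these 2 genes all other alternatives kept both calls against Veh, except that Parp14 in PGE missed the threshold in the first run alone (edgeR adjusted p = 0.0797).

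Irradiation alone called none of the 43 genes in stroma. In Veh against NI-Veh 0 of 43 passed in edgeR and in DESeq2, where 0.771% of all genes passed in edgeR, and the median was -0.04 with 27 of 43 below 0 (52.3% of all genes). A p under 0.05 before adjustment was reached by 4 (9.19% of all genes): Irf1, a factor induced by interferon gamma, at 0.59, Gbp3 at 0.55, Ifit3 at -0.80 and Stat2 at -0.49. Mx1 followed at 0.94 (edgeR adjusted p = 0.658). In PGE against NI-PGE 0 of 43 passed in edgeR and in DESeq2 (0.0461% of all genes in edgeR) and 2 at an unadjusted p under 0.05 (5.86%), with Rsad2 at -1.04 the first by p-value (edgeR adjusted p = 0.699), followed by Gbp9 (-0.59), Gbp6 (-0.69), Oasl2 (-0.47) and Xaf1 (-0.27). Rsad2 there rests on NI-PGE replicate 4, with 715 CPM against 149 to 243 CPM in the other 3 NI-PGE libraries.

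Sulprostone, which acts on the EP3 receptor, and rivenprost, which acts on EP4, were set against dmPGE2 and against each other in 10 pairs of irradiated stroma groups. Benjamini-Hochberg adjustment ran over all genes of each pair. In EP3 against PGE, Parp14 was higher, at 101.3 ± 24.8 CPM in EP3 and 58.2 ± 8.79 CPM in PGE mice (SD, n = 4 each). The lowest EP3 library lay just over the highest PGE one, and 5.16% of all genes had every EP3 library above every PGE library. The log2 fold change was 0.79 (edgeR adjusted p = 0.0135), 1 of 43 genes where 1.05% of all genes were higher. The call was lost without EP3 replicate 1, EP3 replicate 2 or PGE replicate 1, at adjusted p-values of 0.0553 to 0.0803, and with the 2 groups fitted alone (0.11). Next by p-value were Gbp9 (0.92), Gbp3 (0.81), Irgm2 (1.05) and Cmpk2 (-0.65), none of which passed.

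In EP3+4 against EP3, 3 of the 43 genes were lower, where 1.3% of all genes were. Parp14 differed by -0.72 (edgeR adjusted p = 0.0189), Irgm2 by -1.36 (0.0375) and Stat2, the interferon signal transducer, by -0.96 (0.0349). Stat2 stood at 12.6, 13.6, 27.1 and 18.9 CPM in EP3+4 mice and 24.9, 41.7, 29.1 and 44.9 CPM in EP3 mice, groups that overlap in 1 pair of libraries. Gbp9 (-0.82) and Xaf1 (-0.51) came next and did not pass. Leaving out EP3 replicate 2, EP3+4 replicate 1 or EP3+4 replicate 4 left 0 of the 3 called. The call of Irgm2 ended without any library of these 2 groups other than EP3 replicate 3, at adjusted p-values of 0.0511 to 0.148. In the other 8 pairs 0 of 43 passed in edgeR or DESeq2, where edgeR called 0.033% of all genes in EP4 against EP3, 0.0132% in Miso against EP3 and 0% in the remaining 6. Without adjustment, p lay under 0.05 for 6 in EP4 against PGE (9.68% of all genes), 0 in EP3+4 against PGE (0.633%), 4 in Miso against PGE (4.79%) and 4 in EP4 against EP3 (8.53%). It did so for 4 in EP3+4 against EP4 (5.04%), 8 in Miso against EP3 (8.26%), 0 in Miso against EP4 (0.818%) and 4 in Miso against EP3+4 (3.09%). The interval of the difference still allowed changes of size: for Irgm2 it was -0.31 in EP3+4 against PGE, from -0.998 to 0.39, and -1.28 in EP3+4 against EP4, at an unadjusted p of 0.000908 and an adjusted p of 0.88.

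In HSC, treatment called none of the 42 genes. In edgeR the count was 0 of 42 in EP3, EP4, EP3+4 and Miso against Veh, where 0.0147%, 0.494%, 0.545% and 0.251% of all genes passed in either direction, and DESeq2 called 0, 0, 1 and 0. The genes with an unadjusted p under 0.05 numbered 5 in EP3 (4.5% of all genes), 3 in EP4 (6.4%) and 1 in Miso (6.59%). In the 6 pairs of treatments the count was also 0, where 0.332% of all genes passed in EP4 against EP3, 0.243% in EP3+4 against EP3, 0.0369% in Miso against EP3 and 0% in the other 3. DESeq2 called 1, in EP3+4 against EP4, and 0 in the remaining 5. By unadjusted p under 0.05 they numbered 4 in EP4 against EP3 (6.08%), 3 in EP3+4 against EP3 (6.37%), 3 in EP3+4 against EP4 (2.74%), 1 in Miso against EP3 (6.13%), 0 in Miso against EP4 (3.27%) and 3 in Miso against EP3+4 (3.83%). The median log2 fold change against Veh lay between -0.12 and -0.04. The standard error of the log2 fold change in EP3+4 against Veh had a median of 0.343 over the 42 genes in HSC and 0.241 over the same genes in stroma, and it was larger in HSC for 33 of the 42.

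**Figure D5:**
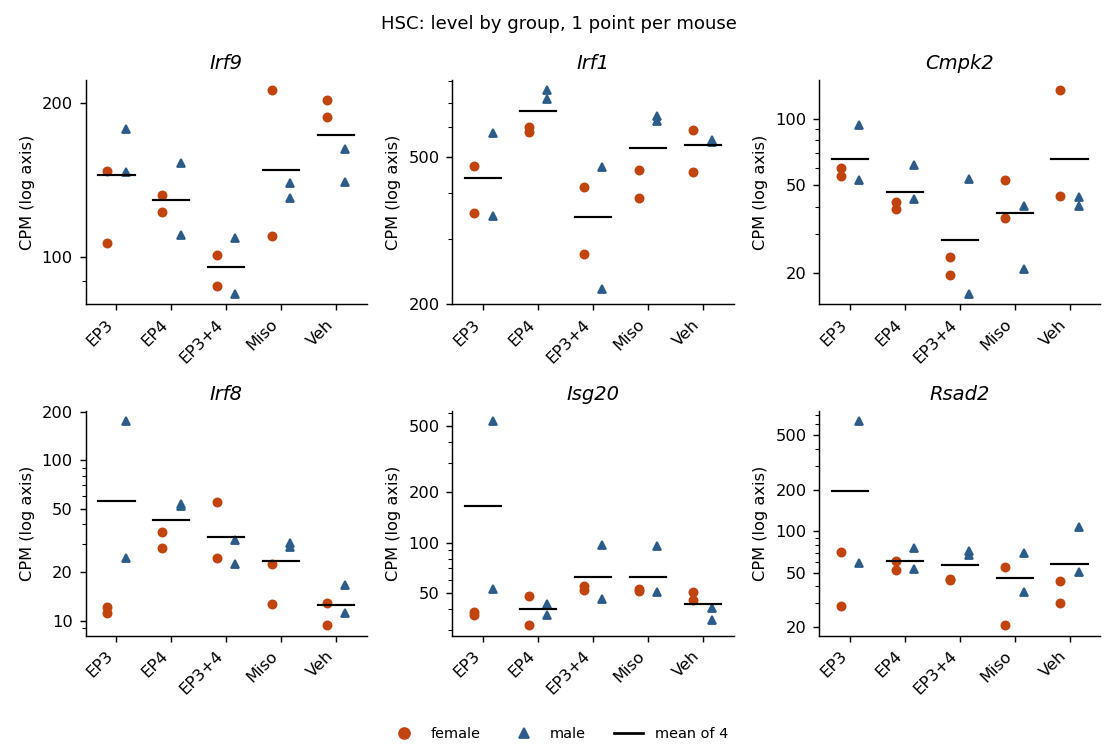
Level of Irf9, Irf1, Cmpk2, Irf8, Isg20 and Rsad2 in each HSC library (CPM, log axis), by group, with a point per mouse marked by sex and a line at the mean of 4. Irf9 lies lower in EP3+4 than in Veh and Irf8 higher in EP4 than in Veh, with no overlap, and neither passed an adjusted p of 0.05; 1 library of EP3 stands high for Irf8, Isg20 and Rsad2.

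Irf9, the DNA-binding part of the interferon-activated complex, came closest. It stood at 109, 88.1, 84.96 and 101 CPM in EP3+4 mice and at 162, 202, 140.5 and 188 CPM in Veh mice, with no overlap, as for 3 of the 42 genes and 2.15% of all genes. The log2 fold change was -0.85 (edgeR adjusted p = 0.0657). It passed in DESeq2 and in the fit with no sex term. Irf1 stood at 469, 413, 220 and 273 CPM in EP3+4 mice, against 548, 591, 555 and 454 CPM in Veh mice, in groups that overlap by 1 library on each side, at -0.64 (edgeR adjusted p = 0.381). In EP3+4 7 genes of 42 were lower at an unadjusted p under 0.05, against 3.34% of all genes, with Iigp1 at -0.86, the viperin neighbour Cmpk2 at -1.22 and Irgm2 at -1.08 next after these.

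Irf8, a factor of the myeloid and dendritic lineages, was higher in treated HSC without passing. It stood at 53.6, 36.0, 52.2 and 28.6 CPM in EP4 mice and at 31.8, 55.1, 22.5 and 24.4 CPM in EP3+4 mice, against 11.1, 9.34, 16.6 and 12.8 CPM in Veh mice. Every library of both treated groups lay above every Veh library, which 3.42% of all genes did in EP4 and 2.42% in EP3+4. The log2 fold change was 1.72 in EP4 (edgeR adjusted p = 0.449) and 1.54 in EP3+4. Irf8 passed in EP4 when the groups were fitted alone or with 3 HSC libraries removed, EP3 replicate 1 for its blood cell markers and Veh replicate 2 and Miso replicate 2, which had the lowest mean log2 CPM over all genes (3.42 and 3.34, against 3.54 to 4.06 in the other 18). In EP4 the next values were -0.61 for Rtp4, -0.42 for Irf9, -0.45 for Oasl2 and -1.01 for Gbp6.

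In EP3 against Veh the first genes by p-value were Irf8 (1.86), Isg20 (1.64), Rsad2 (1.54), Iigp1 (-0.73) and Stat2 (-1.29), each at an edgeR adjusted p of 1. The first 3 of these rest on EP3 replicate 1, which held 175, 531 and 631 CPM of them, and which is the library with 13290 CPM of granulocyte markers. Without it the values were 0.38 for Irf8, -0.000228 for Isg20 and 0.03 for Rsad2. In Miso against Veh the leading values were 1.07 for Ifit1, with every Miso library above every Veh library (1.47% of all genes), -0.81 for Cmpk2, 0.53 for Dhx58, 0.86 for Irf8 and -0.53 for Irgm2. Between treatments Irf1 was lower in EP3+4 than in EP4, at 469, 413, 220 and 273 CPM in EP3+4 mice and 714, 584, 758 and 601 CPM in EP4 mice. The groups do not overlap, as for 2 of the 42 genes and 2% of all genes, and the log2 fold change of -0.94 did not pass (unadjusted p = 0.000271, edgeR adjusted p = 0.921); it passed in DESeq2.

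Around these genes in HSC, the receptor chain Ifngr1 rose in EP4 (1.89), EP3+4 (1.71) and Miso (1.27) against Veh, at 675 ± 43.6 CPM in EP4 and 183 ± 28.2 CPM in Veh mice (SD, n = 4 each; edgeR adjusted p = 6.09e-06). Socs3 rose in the same 3 groups, by 4.17, 5.31 and 4.56 on the log2 scale. No other gene of the pathway lists passed against Veh.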

How the data were processed

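RNA sequencing counts of 20 HSC and 32 stroma libraries were used as deposited, 1 table per compartment. The authors aligned reads to mm10 with STAR 2.5 and counted them per gene with featureCounts of Subread 1.5.1, per the submitters' processing notes, and the deposited values are whole-number counts without normalization. No source used here states whether the counting used strand. The 52 columns of log2 CPM in the same tables were not used.

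Each compartment was fitted with edgeR 4.0.16 in R 4.3.3 (TMM normalization, robust quasi-likelihood fit, a term per group and a term for sex), with Benjamini-Hochberg adjustment over all genes of the table and a threshold of 0.05. No filter was added, since edgeR's filter on low counts would remove 0 genes. CPM values use TMM-adjusted library sizes, and mean log2 values a prior count of 2. Alternatives were DESeq2 1.42.0, other normalizations, filters, terms and subsets of libraries. The fits were tested on simulated data.

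Replicate numbers were given in accession order, and mice are numbered individually in the labels. The genes and the lists of pathway genes and markers were chosen with earlier results of these data known. Every listed gene with an adjusted p under 0.05 is named, with the next by p-value up to 5 in comparisons with a control, whereas for pairs of treatments and the interaction only some of these next genes are printed. Pathway genes are named only where they passed, and those of treatment pairs are not listed. Overlap of exons was looked up in the annotation: Ifi47 shares 333 bases with Olfr56. Intervals and p-values measure the spread between mice, and each group has 4. For female against male they leave out the spread between sets of mice with consecutive numbers.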

Additional observations from a re-analysis of the deposited data

Results flagged for a closer look

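Named genes and the mean over all listed genes were examined in each group of 4 libraries for 1 library far from the other 3, by the gap to its nearest neighbour as a share of the range of the group (Dixon's 95% critical value). This happened in 5 of the groups examined, or 4.46%, where chance gives about 1 in 20. In HSC of EP3 mice, replicate 1 held 175 CPM of Irf8, against 11.2 to 24.4 CPM in the other 3. The same library held 531 CPM of Isg20, against 36.8 to 52.9 CPM, and 631 CPM of Rsad2, against 28.7 to 70.5 CPM. It is the library with 13290 CPM of granulocyte markers and 5890 CPM of monocyte and macrophage markers. In HSC of Veh mice, replicate 2 held 134.97 CPM of Cmpk2, against 40.2 to 44.5 CPM. In stroma of NI-PGE mice, replicate 4 held 715 CPM of Rsad2, against 149 to 243 CPM in the other 3. Whether marker content bears on these values was not tested.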

How the results depend on the processing

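No call of a named gene changed direction under any alternative run. The counts below are given without the share of all genes that passed in the same fit. The count of genes passing stayed within 1.5 times of the reported one under other size factors (RLE, upper quartile) and both filters. Single calls were still lost: 5 of 31 under RLE and 5 of 31 under the filter on a mean CPM of at least 1. Parp14 in NI-PGE against NI-Veh was lost under both (edgeR adjusted p = 0.0601 and 0.0513). DESeq2 gave 4 for PGE against Veh, 5 for EP3+4 against Veh, 1 for Miso against Veh (Parp14), 4 for EP3 against PGE and 5 for EP3+4 against EP3 in stroma. In HSC it gave 1 for EP3+4 against Veh (Irf9) and 1 for EP3+4 against EP4 (Irf1). With no sex term the counts were 1 for EP3+4 against Veh in HSC (Irf9), 1 for NI-PGE against NI-Veh (Irgm2) and 1 for EP3+4 against EP3 in stroma (Stat2). With the groups fitted alone they were 1 for EP4 against Veh in HSC (Irf8), 1 for NI-PGE against NI-Veh (Irgm2), 0 for EP3 against PGE and 0 for EP3+4 against EP3 in stroma. Removing 3 HSC libraries (EP3 replicate 1, Veh replicate 2 and Miso replicate 2) gave 1 for EP4 against Veh (Irf8). With the run of mouse numbers as a term, EP3 against PGE gave 3.

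Fits within a run were chosen after seeing the data. The first run alone gave 0 for NI-PGE against NI-Veh, 1 for PGE against Veh, 11 for EP3+4 against Veh, 13 for EP3+4 against EP3 and 8 for female against male stroma. The second gave 0 for PGE against Veh, EP3+4 against Veh, EP3 against PGE and EP3+4 against EP3, and 10 for female against male. Irradiated libraries alone, also chosen afterwards, gave 10 for female against male. The cause of these shifts was not tested; within a run each group holds at most 2 mice.

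Leaving out 1 library at a time gave 2 to 5 for EP3+4 against Veh (5 without EP3+4 replicate 3), 12 to 21 for female against male stroma, 0 to 3 for EP3 against PGE (3 without EP3 replicate 3) and 0 to 5 for EP3+4 against EP3 (5 without EP3 replicate 3). It gave 0 to 1 for Miso against EP3 (1 without EP3 replicate 3) and 1 to 4 for NI-PGE against NI-Veh, with 1 left, Irgm2, without NI-PGE replicate 3 or NI-Veh replicate 2, 3 or 4. Mice of 1 sex with consecutive numbers form sets that hold mice of different groups, and a fit with the set as a replicate block in place of sex, chosen after seeing the data, gave 6 for NI-PGE against NI-Veh, 4 for PGE against Veh, 5 for EP3+4 against Veh, 1 for Miso against Veh (Parp14), 6 for EP3 against PGE and 6 for EP3+4 against EP3, and no call was lost. Over all genes the deviations of libraries of 1 set correlated by more than 0.1 in every pair in 2 of 18 stroma comparisons (EP3+4 against EP4 and Miso against PGE, 0 called with and without the block) and in 0 of 10 HSC comparisons, with values of -0.43 to 0.6 in stroma and -0.17 to 0.091 in HSC, so the sets were not taken to pair the mice. The female against male comparison cannot take this block, since each set holds 1 sex. With the run as a term Ifit3 in female against male stroma was no longer called. HSC values are limited by the spread between mice, by 4 mice a group and by counts at or near 0 for Mx2, Ifit3, Gbp9 and Oas2.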
